A study of Homo sapiens with 6 samples.

Results

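The genes of cholesterol and fatty acid synthesis were followed in SW480, a human colorectal adenocarcinoma cell line. The 35 genes were taken by symbol from a list chosen with earlier results of these data known. All 35 were found among the 56303 genes of the count table. They were read in 3 groups. There were 18 enzymes of sterol synthesis, 5 genes of SREBP regulation and sterol transport, and 12 enzymes of fatty acid and lipid synthesis. Polyadenylated RNA was sequenced from 3 shCtrl libraries and 3 shMORC2 libraries, numbered as replicates 1 to 3 in each group. The shCtrl cells carried a nonsilencing hairpin and are labelled WT, and the shMORC2 cells carried a hairpin against MORC2, an ATPase of the nucleus. Both hairpins came by lentivirus, and the study's methods describe stable clonal lines selected with puromycin, so both groups were infected and selected cells. One population of each kind was compared, so a difference between the populations and the knockdown of MORC2 cannot be told apart. The study describes independent replicate experiments, and the labels do not say whether these were separate cultures. All p-values measure the spread between these libraries, which may in part be technical.

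Cholesterol is built from acetyl-CoA through mevalonate, the isoprenoid pyrophosphates, squalene and lanosterol, and its last steps remove methyl groups from lanosterol and move double bonds. Fatty acids are built from the same precursor by acetyl-CoA carboxylase and fatty acid synthase, and are then elongated and desaturated. Transcription of both branches is driven by the SREBP factors. SCAP escorts SREBP from the endoplasmic reticulum to the Golgi when sterols are low, and INSIG1 holds the complex back when sterols are high. SREBF2 mainly serves the sterol genes and SREBF1 the fatty acid genes, and INSIG1 is itself an SREBP target. Intestinal and liver cells are among the tissues with an active pathway.

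The libraries held 42092664 to 43434425 counts each. MORC2 stood at 46.1, 46.4 and 48.8 CPM (counts scaled to library size, with TMM) in shCtrl and at 35.03, 29.3 and 27.2 CPM in shMORC2. Its log2 fold change was -0.63 (SE 0.10, adjusted p of 0.000216 by edgeR), and the level was highest in shMORC2 replicate 1 among the knockdown libraries. MORC2-AS1 lies on the other strand of MORC2. Of the 10 colorectal epithelial markers, KRT8, KRT18, KRT19, EPCAM, VIL1 and CDH1 were each above 100 CPM in both groups, and CDX1 was at or near 0. CDH17 was low, with means of 0.631 CPM in shCtrl and 1.08 CPM in shMORC2, and was not called (adjusted p of 0.0832 by edgeR). KRT20, with means of 9.49 and 15.9 CPM, was called higher in shMORC2 (log2 fold change 0.75, adjusted p of 0.00305 by edgeR). CDX2, with means of 15.2 and 21.2 CPM, was also called higher (log2 fold change 0.47, adjusted p of 0.0158 by edgeR). By edgeR the adjusted p of CDX2 was 0.0648 without shCtrl replicate 2, 0.0576 without shCtrl replicate 3 and 0.0968 without shMORC2 replicate 3. The summed level of the 10 markers ran from 20139 to 26179 CPM in shCtrl and from 19184 to 26071 CPM in shMORC2. The 5 blood cell markers together stayed below 0.70 CPM in every library, and HBB was at 0. The summed fibroblast markers ran from 10.04 to 12.6 CPM over all libraries. The summed endothelial markers ran from 15.7 to 19.6 CPM in shCtrl and from 20.6 to 22.3 CPM in shMORC2, without overlap, with CDH5 and KDR at or near 0. Most of this sum was PECAM1, with means of 15.03 CPM in shCtrl and 18.3 CPM in shMORC2. PECAM1 overlapped between groups and was not called (log2 difference 0.28, SE 0.11, adjusted p of 0.0519 by edgeR). VWF, with means of 2.21 and 3.21 CPM, was called higher (log2 fold change 0.54, adjusted p of 0.0238 by edgeR), a call kept in 9 of 13 alternatives. By edgeR its adjusted p was 0.0580 without shCtrl replicate 1, 0.0856 without shCtrl replicate 2, 0.0548 without shMORC2 replicate 2 and 0.10 without shMORC2 replicate 3. The 5 hepatocyte markers summed to 56.9 to 80.2 CPM in shCtrl and to 83.1 to 107.7 CPM in shMORC2, most of it SERPINA1, which was called higher (log2 fold change 0.52, adjusted p of 0.00470 by edgeR). ALB and APOA1 were called lower, with log2 fold changes of -2.23 and -2.49 and adjusted p of 8.27e-05 and 0.000361 by edgeR, and TTR was at 0 in all shMORC2 libraries. The part of these markers in the results was not tested. In bulk RNA, fewer cells of a type and less RNA per cell cannot be told apart.

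All 35 genes were well counted, with 144 to 24637 counts in a library, and all passed the filter on low counts. In edgeR's quasi-likelihood test with an adjusted p under 0.05, 19 of the 35 were called, 12 of them higher and 7 lower in shMORC2. Across all 21005 genes tested, 39.5% were called, 19.9% higher and 19.6% lower. Of the 18 sterol enzymes 13 were called, 11 higher and 2 lower. Of the 5 regulation and transport genes 2 were called, both lower. Of the 12 fatty acid enzymes 4 were called, 1 higher and 3 lower, a share of 33.3% that was near the background. The median log2 fold change was 0.32 for the sterol enzymes, -0.18 for the regulation and transport genes, 0.05 for the fatty acid enzymes and -0.01 over all genes tested. The median of the regulation and transport genes was -0.27 without shCtrl replicate 1, -0.12 without shCtrl replicate 3 and -0.10 without shMORC2 replicate 1. That of the fatty acid enzymes was 0.01 without shCtrl replicate 2, 0.01 without shMORC2 replicate 1 and 0.0045 without shMORC2 replicate 3. A call together with a log2 change of at least 0.5 in size was found for 7 of the 35, a share near the 22.4% of all genes.

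The shMORC2 and shCtrl values did not overlap for 13 of the 18 sterol enzymes, 1 of the 5 regulation and transport genes and 5 of the 12 fatty acid enzymes, against 50.2% of all genes. Summed over the 18 sterol enzymes, the level per length was 238, 282 and 291 RPKM (reads scaled to exon length and library size) in shCtrl and 305, 347 and 347 RPKM in shMORC2. These sums did not overlap. On the CPM scale, where long transcripts weigh more, the sums overlapped, with 909, 1119 and 1183 CPM in shCtrl and 1115, 1334 and 1313 CPM in shMORC2.

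**Figure D1:**
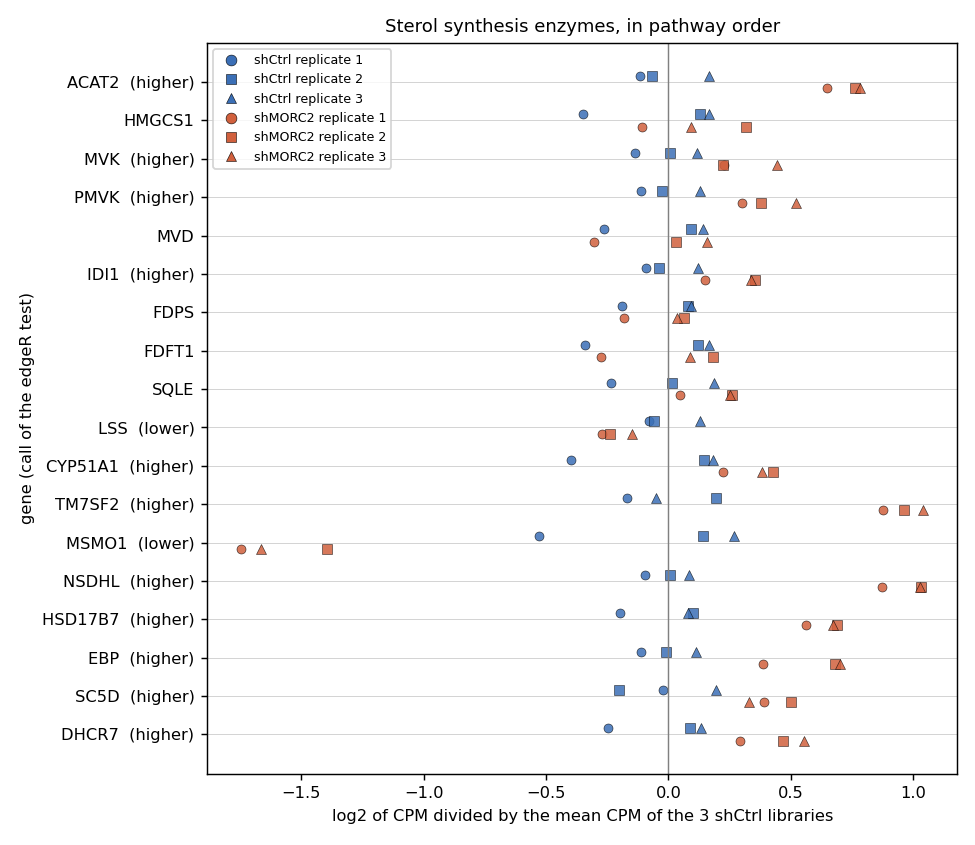
Each row is 1 sterol enzyme in pathway order and each point 1 library, placed at the log2 of its CPM divided by the shCtrl mean, with colour for the group and shape for the replicate number. NSDHL, TM7SF2, ACAT2, HSD17B7 and EBP sit to the right in shMORC2 and MSMO1 far to the left, while HMGCS1, MVD, FDPS and FDFT1 overlap.

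At the entry to the pathway, ACAT2 and HMGCS1 differed. ACAT2, the cytosolic thiolase that joins acetyl-CoA units, rose from 41.1, 42.6 and 50.1 CPM in shCtrl to 69.8, 75.7 and 76.7 CPM in shMORC2, a log2 fold change of 0.73 (SE 0.09, adjusted p of 3.57e-05 by edgeR). Its groups lay well apart. The gene (chromosome 6, 159760328 to 159779055, GRCh38) shares exon sequence with TCP1 and SOD2 on the other strand, and how strand was treated in counting was not given in the sources used here. HMGCS1, which makes the next intermediate of the pathway, was at 75.9, 105.7 and 108.5 CPM in shCtrl against 89.7, 120.6 and 103.2 CPM in shMORC2. The groups overlapped, with a log2 difference of 0.11 (SE 0.13, adjusted p of 0.527 by edgeR).

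The mevalonate enzymes moved by less than ACAT2. PMVK (phosphomevalonate kinase) rose from 16.1 ± 1.40 to 21.3 ± 1.70 CPM (SD, n = 3 each; log2 fold change 0.40, SE 0.10, adjusted p of 0.00555 by edgeR). MVK (mevalonate kinase) rose from 35.04 ± 3.09 to 43.2 ± 3.86 CPM, for a log2 fold change of 0.30 (SE 0.09, adjusted p of 0.0197 by edgeR). IDI1, which isomerises isopentenyl pyrophosphate, rose from 27.7 ± 2.17 to 33.7 ± 2.61 CPM, for a log2 fold change of 0.28 (SE 0.09, adjusted p of 0.0237 by edgeR). The groups did not overlap for PMVK, MVK and IDI1, but MVK and IDI1 depended on single libraries. The edgeR adjusted p of MVK was 0.0703 without shCtrl replicate 1, 0.0546 without shCtrl replicate 2 and 0.104 without shMORC2 replicate 3. For IDI1 the edgeR adjusted p was 0.0741 without shCtrl replicate 1, 0.0798 without shCtrl replicate 2, 0.0981 without shMORC2 replicate 2 and 0.0842 without shMORC2 replicate 3. Genes on the other strand share exon sequence with MVK (MMAB) and IDI1 (IDI2-AS1).

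MVD, FDPS and FDFT1, which lead from mevalonate pyrophosphate to squalene, stood at nearly equal means in the groups. MVD (mevalonate pyrophosphate decarboxylase) was at 40.8 ± 5.97 CPM in shCtrl against 40.1 ± 6.40 CPM in shMORC2. FDPS (farnesyl pyrophosphate synthase) was at 139 ± 14.9 and 137 ± 12.5 CPM, and FDFT1 (squalene synthase) at 252 ± 46.4 and 254 ± 40.9 CPM. Their log2 differences were -0.03 (SE 0.12), -0.02 (SE 0.09) and 0.01 (SE 0.13), with edgeR adjusted p of 0.890, 0.870 and 0.952. The table also lists 8 pseudogenes named after FDPS, with which its reads can be shared.

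The 2 enzymes around squalene epoxide pointed in opposite directions. SQLE, the squalene epoxidase, was at 52.1, 61.95 and 69.8 CPM in shCtrl against 63.4, 73.3 and 72.9 CPM in shMORC2. The groups overlapped and SQLE was not called (log2 difference 0.19, SE 0.10, adjusted p of 0.165 by edgeR). With the replicate number as a block its edgeR adjusted p was 0.0123, and without shCtrl replicate 3 it was 0.0495. LSS, the lanosterol synthase, fell from 62.7 ± 5.12 to 53.9 ± 2.33 CPM (SD, n = 3 each), a log2 fold change of -0.22 (SE 0.08, adjusted p of 0.0470 by edgeR). This call was kept in 8 of 15 alternatives. DESeq2 gave LSS an adjusted p of 0.0534, and edgeR without a filter gave 0.0627. The edgeR adjusted p of LSS was 0.0612 without shCtrl replicate 2, 0.244 without shCtrl replicate 3, 0.0986 without shMORC2 replicate 1, 0.137 without shMORC2 replicate 2 and 0.0708 without shMORC2 replicate 3.

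After lanosterol, 7 of the 8 enzymes were called higher and MSMO1 was called lower. CYP51A1, TM7SF2, MSMO1, NSDHL and HSD17B7 remove methyl groups and reduce a double bond of lanosterol, and EBP, SC5D and DHCR7 finish the ring. MSMO1, NSDHL and HSD17B7 act one after the other to take away the methyl groups at C-4, MSMO1 as the oxidase, NSDHL as the decarboxylating dehydrogenase and HSD17B7 as the ketoreductase.

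MSMO1 (chromosome 4, 165327623 to 165343160, plus strand, GRCh38) stood at 10.6, 16.9 and 18.5 CPM in shCtrl, and at 4.58, 5.84 and 4.84 CPM in shMORC2. Every shMORC2 library lay well below the lowest shCtrl library, and shCtrl replicate 1 was lower than the other two. The log2 fold change was -1.59 (SE 0.18, adjusted p of 2.33e-05 by edgeR). The fitted level was 33.2% of control. Over 15 alternatives the log2 fold change ran from -1.80 to -1.17, and MSMO1 was called lower in all of them.

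NSDHL (chromosome X, 152830967 to 152869729, plus strand) stood at 48.4, 52.0 and 54.8 CPM in shCtrl, and at 94.7, 105.7 and 105.4 CPM in shMORC2. It was 1.97-fold higher in shMORC2 (log2 fold change 0.98, SE 0.08, adjusted p of 1.83e-06 by edgeR). HSD17B7 (chromosome 1, 162790702 to 162812817, plus strand) was at 7.21, 8.84 and 8.73 CPM in shCtrl, and at 12.2, 13.3 and 13.2 CPM in shMORC2. Its log2 fold change was 0.64 (SE 0.11, adjusted p of 0.000587 by edgeR). In both genes the groups lay clearly apart. The table also lists the pseudogenes HSD17B7P1 and HSD17B7P2, so the share of reads given to HSD17B7 is uncertain, while MSMO1 and NSDHL share no exon sequence with another gene of the table.

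Consecutive enzymes of 1 demethylation reaction therefore moved apart at the RNA level. The ratio of MSMO1 to NSDHL in RPKM was 0.152, 0.225 and 0.233 in shCtrl and 0.0334, 0.0381 and 0.0317 in shMORC2. The ratio of HSD17B7 to NSDHL was 0.0772 ± 0.00510 in shCtrl and 0.0612 ± 0.00101 in shMORC2 (SD, n = 3 each). These ratios were chosen after the values were seen and were not tested.

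The gene start windows of these enzymes and of SREBF2 are shown because the 3 enzymes share a reaction and differ in direction. RefSeq windows of 300 bases (GRCh38.p14) were found for 31 of the 35 genes. The capitals mark the NF-Y box CCAAT, or ATTGG on the other strand, in the first 3 windows, and the sterol regulatory element TCACCCCAC in the fourth. The windows are chr4:165327419-165327718 for MSMO1, chrX:152830813-152831112 for NSDHL, chr1:162790452-162790751 for HSD17B7 and chr22:41832855-41833154 for SREBF2, all on the plus strand.
MSMO1: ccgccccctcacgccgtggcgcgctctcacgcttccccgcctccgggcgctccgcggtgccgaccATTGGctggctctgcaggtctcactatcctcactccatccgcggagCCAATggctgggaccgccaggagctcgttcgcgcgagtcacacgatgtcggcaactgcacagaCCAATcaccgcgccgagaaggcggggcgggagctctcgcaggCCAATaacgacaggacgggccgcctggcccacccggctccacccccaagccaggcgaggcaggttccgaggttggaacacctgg
NSDHL: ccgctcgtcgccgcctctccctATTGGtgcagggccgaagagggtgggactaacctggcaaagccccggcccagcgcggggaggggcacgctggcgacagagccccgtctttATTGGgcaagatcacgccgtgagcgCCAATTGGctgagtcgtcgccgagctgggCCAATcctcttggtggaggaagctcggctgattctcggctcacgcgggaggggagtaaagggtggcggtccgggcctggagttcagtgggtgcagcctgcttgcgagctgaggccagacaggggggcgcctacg
HSD17B7: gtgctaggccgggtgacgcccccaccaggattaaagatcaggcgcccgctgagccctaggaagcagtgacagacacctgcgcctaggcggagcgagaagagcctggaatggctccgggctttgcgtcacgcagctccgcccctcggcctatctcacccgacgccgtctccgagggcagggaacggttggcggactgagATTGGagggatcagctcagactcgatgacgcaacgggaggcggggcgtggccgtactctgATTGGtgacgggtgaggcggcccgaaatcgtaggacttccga
SREBF2: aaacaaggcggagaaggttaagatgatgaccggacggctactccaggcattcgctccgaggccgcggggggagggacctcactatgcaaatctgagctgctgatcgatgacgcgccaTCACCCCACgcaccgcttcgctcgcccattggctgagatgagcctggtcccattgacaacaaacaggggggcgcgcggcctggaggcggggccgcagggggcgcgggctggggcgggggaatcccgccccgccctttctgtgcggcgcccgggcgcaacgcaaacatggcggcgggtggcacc

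The MSMO1 window held 4 NF-Y boxes, the NSDHL window 5, of which a pair overlaps, and the HSD17B7 window 2, of which 1 lies after the gene start. MSMO1 and NSDHL, which had opposite RNA changes, both held several of these boxes, and the part of the boxes in the changes was not tested. On either strand, CCAAT was found in 23 of the 31 genes, against 39.7% of all 27305 genes with a window. Of the 43 windows of the 31 genes, 26 (60.5%) held CCAAT, against 34.6% of all 35116 windows. Of the 15 sterol enzymes with a window, 13 held it. TCACCCCAC, and the looser TCACNCCAC that contains it, were found in 1 of the 31 genes, SREBF2, whose match begins 133 bases before the gene start. The looser form was found in 1.13% of all windows and 1.39% of all genes with a window, and the exact one in 0.43% and 0.535%. The palindromic E-box CACGTG was found in ELOVL5, INSIG1, LSS, SC5D and SCAP, and in 8.77% of all genes with a window. It was in 6 of the 43 windows (14.0%), against 7.26% of all windows. None of the called members with a window held TCACNCCAC. ACAT2, SQLE, FDFT1 and FASN had no window.

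TM7SF2, a sterol reductase, had the lowest level per length of the sterol enzymes in shCtrl. It rose from 3.29, 4.23 and 3.57 CPM to 6.79, 7.21 and 7.61 CPM, a log2 fold change of 0.96 (SE 0.14, adjusted p of 0.000127 by edgeR), and its groups did not overlap. VPS51 shares exon sequence with it on the same strand. CYP51A1, the lanosterol demethylase, was at 46.95, 68.4 and 70.2 CPM in shCtrl, and at 72.1, 83.04 and 80.5 CPM in shMORC2, with a log2 fold change of 0.35 (SE 0.13, adjusted p of 0.0437 by edgeR). The highest shCtrl library lay just below the lowest shMORC2 library. The edgeR adjusted p of CYP51A1 was 0.131 without shCtrl replicate 1, 0.147 without shMORC2 replicate 2 and 0.125 without shMORC2 replicate 3, and the log2 fold change without shCtrl replicate 1 was 0.18. limma on log2(RPKM + 1) gave it an adjusted p of 0.0690. LRRD1 on the same strand and CYP51A1-AS1 on the other share exon sequence with CYP51A1, and the table lists 3 pseudogenes named after it.

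All 3 genes of the last steps were called higher. EBP, the sterol isomerase, rose from 58.2, 62.6 and 68.03 CPM to 82.2, 100.8 and 102.2 CPM, for a log2 fold change of 0.60 (SE 0.10, adjusted p of 0.000320 by edgeR). DHCR7, the reductase that yields cholesterol, rose from 61.4, 77.3 and 79.8 CPM to 89.1, 100.7 and 106.8 CPM (log2 fold change 0.44, SE 0.10, adjusted p of 0.00430 by edgeR). SC5D, the desaturase before it, rose from 16.8 ± 2.33 to 22.2 ± 1.36 CPM (SD, n = 3 each; log2 fold change 0.41, SE 0.11, adjusted p of 0.00831 by edgeR). The groups of all 3 did not overlap, and none of them shares exon sequence with another gene.

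Within each group the sterol enzymes also varied together between libraries. Replicate 1 was the lowest of the 3 libraries in both groups for 16 of the 18 sterol enzymes, the exceptions being MVK and SC5D, against 20.8% of all genes tested. The median difference of replicate 1 from the mean of replicates 2 and 3 was -0.24 on the log2 scale in shCtrl and -0.19 in shMORC2, and near 0 over all genes. MSMO1 had the largest such difference in shCtrl, at -0.71, followed by CYP51A1 at -0.56, INSIG1 at -0.52 and HMGCS1 at -0.49. In shMORC2 it was largest for ACSS2 (-0.45), FDFT1 (-0.41) and MVD (-0.39). With library size without TMM the count was 15 of 18, or 83.3%, against 15.1% of all genes. The coefficient of variation in shCtrl ran from 1.27% for ACACA to 27.04% for MSMO1. This pattern was seen in the data first and has no test.

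**Figure D2:**
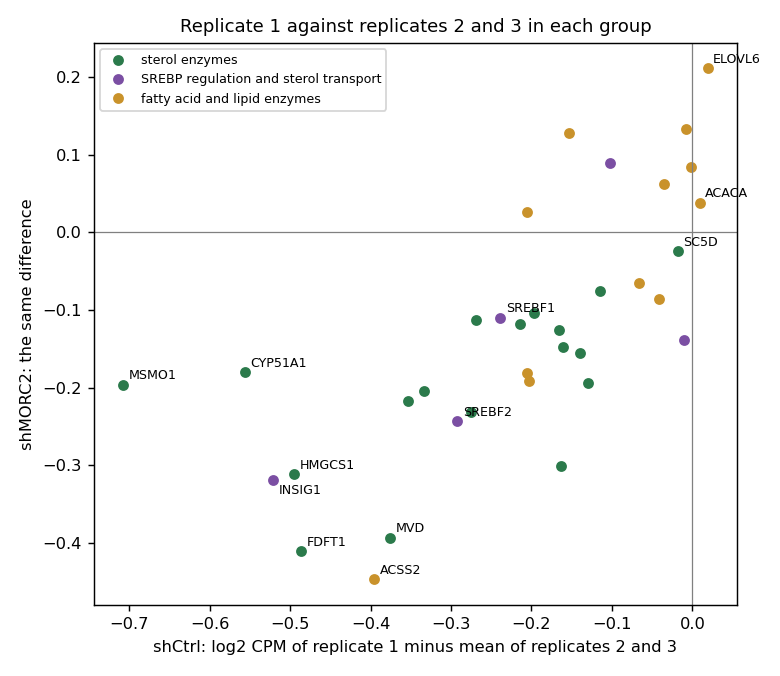
Each point is 1 of the 35 genes, placed at the log2 CPM of replicate 1 minus the mean of replicates 2 and 3, in shCtrl on the x axis and in shMORC2 on the y axis, with colour for the gene group. All 18 sterol enzymes lie in the lower left, where replicate 1 was below the mean of the others in both groups, and most fatty acid enzymes lie nearer to 0.

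With shCtrl replicate 1 left out, the median log2 fold change of the sterol enzymes was 0.24 in place of 0.32, and 10 of 18 were called, against 36.7% of all genes. Without replicate 1 of both groups, an alternative chosen after seeing the data, the median was 0.29 and 13 of 18 were called, against 43.8% of all genes. With the replicate number as a block 14 of 18 were called, against 49.0% of all genes, and SQLE was the one added.

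Of the SREBP genes, SREBF1 and INSIG1 were lower in shMORC2. SREBF1 (chromosome 17, 17810399 to 17837002, minus strand) fell from 81.1, 102.9 and 89.2 CPM to 62.3, 64.6 and 69.95 CPM. The groups lay apart, with a log2 fold change of -0.47 (SE 0.09, adjusted p of 0.00132 by edgeR), called in all 15 alternatives. RAI1 on the other strand shares exon sequence with it. SREBF2, the sterol-directed factor, was at 150.6, 183.1 and 186.1 CPM in shCtrl against 136.4, 159.0 and 164.1 CPM in shMORC2. Its groups overlapped and it was not called (log2 difference -0.18, SE 0.10, adjusted p of 0.163 by edgeR). With the replicate number as a block the edgeR adjusted p of SREBF2 was 0.0104, without shCtrl replicate 1 it was 0.0279, and without replicate 1 of both groups 0.0258.

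INSIG1 (chromosome 7, 155297776 to 155310235, plus strand) was at 30.6, 42.9 and 45.5 CPM in shCtrl against 23.7, 32.6 and 26.98 CPM in shMORC2. It was called lower (log2 fold change -0.51, SE 0.14, adjusted p of 0.0112 by edgeR), although the highest shMORC2 library lay above shCtrl replicate 1. Within each replicate number the shMORC2 value was the lower one, and with the number as a block the edgeR adjusted p was 1.95e-06. It was 0.0535 without shCtrl replicate 2, 0.0550 without shCtrl replicate 3 and 0.0540 without shMORC2 replicate 3, again from edgeR. SCAP, the escort, was at 25.8, 26.5 and 25.4 CPM in shCtrl against 23.04, 25.4 and 25.4 CPM in shMORC2, and was not called (log2 difference -0.07, SE 0.08, adjusted p of 0.514 by edgeR). STARD4, a carrier of cholesterol between membranes, was at 22.2 ± 1.11 and 21.4 ± 1.11 CPM (SD, n = 3 each; edgeR adjusted p 0.640). The 2 calls among the 5 regulation and transport genes, a share of 40.0%, were near the 39.5% of all genes.

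**Figure D3:**
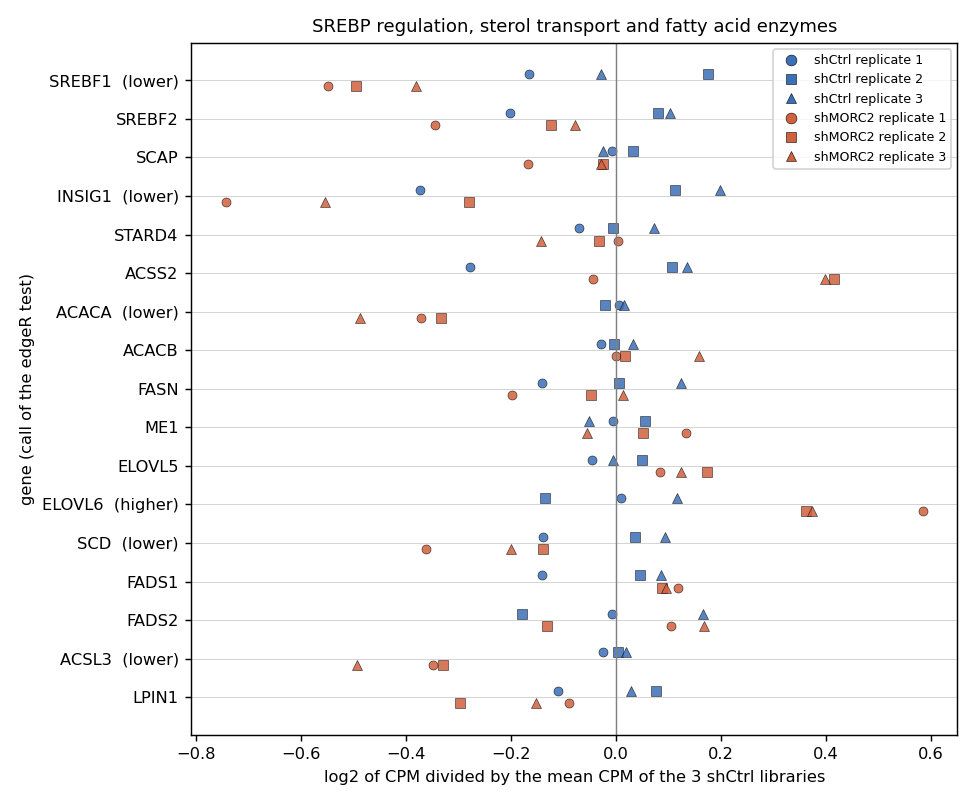
Rows are the 5 regulation and transport genes and the 12 fatty acid and lipid enzymes, and points are libraries at the log2 of CPM divided by the shCtrl mean, with colour for the group and shape for the replicate number. SREBF1, ACACA and ACSL3 lie to the left in shMORC2 and ELOVL6 to the right, while FASN, ME1, FADS2 and ACACB overlap.

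In fatty acid synthesis, the first committed enzyme was lower and the synthase was not called. ACACA, the cytosolic acetyl-CoA carboxylase (chromosome 17, 37084988 to 37406818, minus strand), fell from 116.7, 114.5 and 117.4 CPM to 89.8, 92.2 and 82.8 CPM, a log2 fold change of -0.40 (SE 0.07, adjusted p of 0.000891 by edgeR). The shCtrl libraries were nearly equal and well above all shMORC2 libraries. ACACB, the carboxylase at the mitochondrial surface, was at 14.5 ± 0.312 and 15.1 ± 0.925 CPM (SD, n = 3 each; edgeR adjusted p 0.637). FASN, the fatty acid synthase, was at 498, 551 and 599 CPM in shCtrl against 479, 532 and 554 CPM in shMORC2. Its groups overlapped, with a log2 difference of -0.08 (SE 0.09, adjusted p of 0.524 by edgeR). ACSL3, which activates long-chain fatty acids, fell from 80.9, 82.5 and 83.4 CPM to 64.6, 65.5 and 58.4 CPM, a log2 fold change of -0.39 (SE 0.07, adjusted p of 0.00121 by edgeR), without overlap. ACACA and ACSL3 were called lower in all 15 alternatives.

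Elongation and desaturation genes were mixed. ELOVL6, which elongates palmitate, rose from 15.9, 14.4 and 17.1 CPM to 23.6, 20.3 and 20.4 CPM, for a log2 fold change of 0.44 (SE 0.10, adjusted p of 0.00345 by edgeR) and no overlap, and was the fatty acid enzyme called higher. SCD, the stearoyl-CoA desaturase, was at 368, 416 and 433 CPM in shCtrl against 315, 368 and 353 CPM in shMORC2. It was called lower (log2 fold change -0.23, SE 0.09, adjusted p of 0.0465 by edgeR) although shMORC2 replicate 2 reached the lowest shCtrl library. The edgeR adjusted p of SCD was 0.122 without shCtrl replicate 2, 0.193 without shCtrl replicate 3, 0.126 without shMORC2 replicate 1, 0.0555 without shMORC2 replicate 2 and 0.10 without shMORC2 replicate 3. ELOVL5 (edgeR adjusted p 0.181) and FADS1 (edgeR adjusted p 0.329) had higher values in every shMORC2 library than in any shCtrl library but were not called, with log2 differences of 0.13 (SE 0.07) and 0.10 (SE 0.08). FADS2 had a log2 difference of 0.05 (SE 0.11, adjusted p of 0.725 by edgeR). FADS1 and FADS2, which desaturate polyunsaturated fatty acids, share exon sequence on opposite strands.

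Among the suppliers, ACSS2, which makes acetyl-CoA from acetate, was at 60.02, 78.3 and 79.9 CPM in shCtrl against 70.6, 97.0 and 95.9 CPM in shMORC2. Its groups overlapped and it was not called (log2 difference 0.27, SE 0.13, adjusted p of 0.109 by edgeR). In each replicate number the shMORC2 value was higher, and with the number as a block the edgeR adjusted p of ACSS2 was 0.000441. It was 0.00585 without shMORC2 replicate 1, 0.00241 without replicate 1 of both groups, and 0.0130 with no filter, by edgeR. ME1, a source of NADPH, was at 25.01 ± 0.926 and 25.8 ± 1.69 CPM (SD, n = 3 each; edgeR adjusted p 0.703). LPIN1, a phosphatidate phosphatase, was at 9.06 ± 0.598 and 8.01 ± 0.585 CPM (edgeR adjusted p 0.233).

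Per length, the genes spanned about 2 orders of magnitude in shCtrl. SCD was highest at 75.7 ± 4.59 RPKM (SD, n = 3), followed by FASN at 58.7 ± 3.99, FDFT1 at 48.5 ± 8.02 and FDPS at 37.5 ± 3.33 RPKM. SREBF2 stood at 22.9 ± 2.17 RPKM, above SREBF1 at 11.4 ± 1.33 RPKM. The lowest were LPIN1 at 0.765 ± 0.0417, ACACB at 1.003 ± 0.00288 and TM7SF2 at 1.09 ± 0.140 RPKM. ACACB and TM7SF2 lay within 1 SD of each other in shCtrl, as did NSDHL (25.9 ± 0.999 RPKM) and EBP (26.2 ± 1.41 RPKM). In shMORC2 NSDHL reached 50.9 ± 2.08 RPKM and ranked with FDFT1 at 48.6 ± 6.85 RPKM, from which it differed by less than the spread. MSMO1 went from 5.29 ± 1.33 to 1.75 ± 0.200 RPKM, below TM7SF2 at 2.10 ± 0.0898 RPKM.

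**Figure D4:**
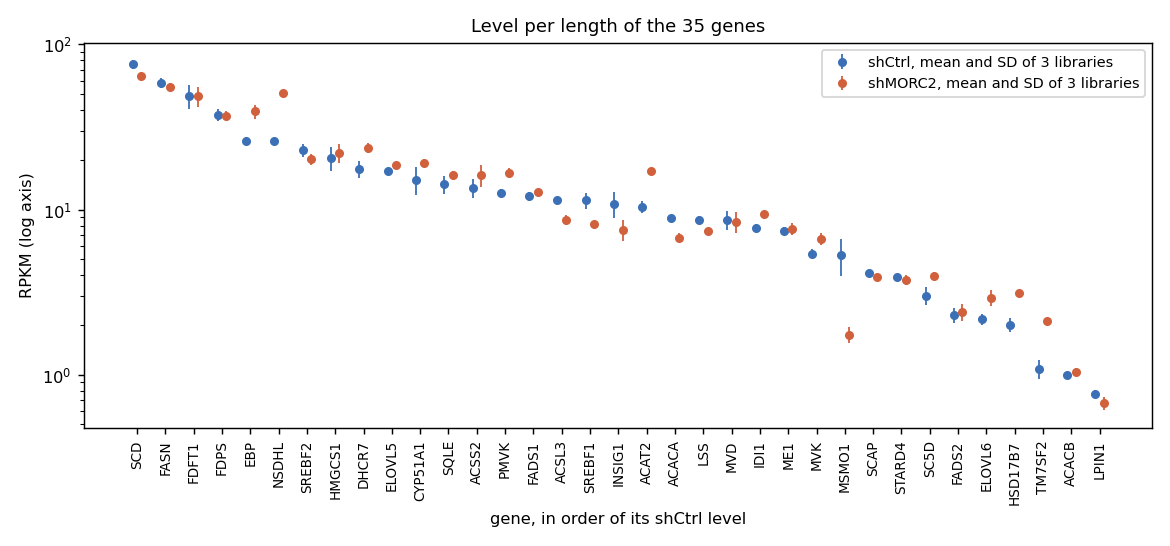
The 35 genes are ordered by their shCtrl level, with RPKM on a log axis and points with bars for the mean and SD of the 3 libraries of each group. NSDHL, ACAT2, TM7SF2, HSD17B7 and EBP lie above and MSMO1 far below their shCtrl level in shMORC2, and SCD and FASN lead in both groups.

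Other genes of the pathway were read from further lists. Of 9 other genes of sterol synthesis 4 were called, 2 higher and 2 lower, a share of 44.4% near the 39.5% of all genes. ERG28, the scaffold of the C-4 demethylation complex, which the files list as C14orf1, rose from 10.2 ± 0.407 to 14.4 ± 0.474 CPM (SD, n = 3 each; log2 fold change 0.50, SE 0.10, adjusted p of 0.00116 by edgeR), in the direction of NSDHL and HSD17B7. ACAT1, the mitochondrial thiolase, fell by 0.57 on the log2 scale (SE 0.07, adjusted p of 4.70e-05 by edgeR), opposite to the cytosolic ACAT2. FAXDC2, a relative of the sterol oxidases, fell by 0.50 (SE 0.10, adjusted p of 0.00178 by edgeR).

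Of 14 other SREBP regulators 5 were called, 1 higher and 4 lower, a share of 35.7% against 39.5% of all genes. The erlins, paired membrane proteins that bind cholesterol in the endoplasmic reticulum, were called in opposite directions. ERLIN1 fell from 24.6, 23.9 and 23.2 CPM to 8.45, 10.3 and 8.48 CPM (log2 fold change -1.40, SE 0.10, adjusted p of 7.46e-07 by edgeR), and ERLIN2 rose from 33.7 ± 3.62 to 48.1 ± 1.12 CPM (log2 fold change 0.51, SE 0.09, adjusted p of 0.000528 by edgeR; SD, n = 3 each). SP1, a factor that acts with SREBP at promoters, fell by 0.46 (SE 0.07, adjusted p of 0.000308 by edgeR).

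Of 16 genes of cholesterol uptake, trafficking and esterification 12 were called, 7 higher and 5 lower, a share of 75.0% against 39.5% of all genes. GRAMD1B, which carries cholesterol from the plasma membrane to the endoplasmic reticulum, fell from 34.9 ± 2.44 to 9.91 ± 0.391 CPM (SD, n = 3 each; log2 fold change -1.81, SE 0.09, adjusted p of 4.18e-08 by edgeR). Its more abundant relative GRAMD1A, named after its values were seen, also fell, from 118.7 ± 23.6 to 79.2 ± 8.32 CPM (log2 fold change -0.58, SE 0.13, adjusted p of 0.00278 by edgeR). Another relative, GRAMD1C, rose from 2.09 ± 0.230 to 3.33 ± 0.491 CPM (log2 fold change 0.67, SE 0.18, adjusted p of 0.00899 by edgeR), and NPC1L1, an intestinal sterol importer, from 1.94 ± 0.584 to 3.09 ± 0.313 CPM (log2 fold change 0.67, SE 0.21, adjusted p of 0.0222 by edgeR). For NPC1L1 the edgeR adjusted p was 0.0556 without shCtrl replicate 1, 0.101 without shCtrl replicate 2, 0.0805 without shMORC2 replicate 2 and 0.0695 without shMORC2 replicate 3. Without shMORC2 replicate 2 or without shMORC2 replicate 3, 7 of the 16 were called, against 6553 of 21635 and 6268 of 21598 genes. limma on RPKM called 7 of 12, against 6269 of 14816 genes on log2(RPKM + 1) and 6227 on log2(RPKM + 0.1). Without shCtrl replicate 2 or without shCtrl replicate 3 the count was 8, against 6428 of 21594 and 6707 of 21663 genes.

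Of 13 genes of the LXR axis and sterol efflux 9 were tested and 4 called, 3 higher and 1 lower, a share of 44.4% near the 39.5% of all genes. NR1H3, the sterol-sensing receptor LXR-alpha, rose from 23.5 ± 1.94 to 33.7 ± 2.34 CPM (SD, n = 3 each; log2 fold change 0.52, SE 0.09, adjusted p of 0.000573 by edgeR). PLTP, a phospholipid transfer protein, had a log2 fold change of 0.54 (SE 0.12, adjusted p of 0.00317 by edgeR) and LPCAT3, a phospholipid-remodelling enzyme, of -0.29 (SE 0.08, adjusted p of 0.0158 by edgeR). For LPCAT3 the edgeR adjusted p was 0.0528 without shCtrl replicate 2 and 0.0854 without shMORC2 replicate 2. With the replicate number as a block 7 of the 9 were called, against 49.0% of all genes. Without shCtrl replicate 2 or without shMORC2 replicate 2 the count was 2 of the 9, against 6428 of 21594 and 6553 of 21635 genes.

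Of 33 other genes of fatty acid synthesis 28 were tested and 16 called, 8 higher and 8 lower, a share of 57.1% against 39.5% of all genes. SCD5, a second desaturase, rose from 1.88 ± 0.158 to 5.44 ± 0.624 CPM (SD, n = 3 each; log2 fold change 1.53, SE 0.16, adjusted p of 1.12e-05 by edgeR) and remained far below SCD. ACSL5, an activator of fatty acids, rose by 1.02 on the log2 scale (SE 0.10, adjusted p of 5.94e-06 by edgeR), and ME3, the mitochondrial malic enzyme, fell by 0.95 (SE 0.09, adjusted p of 7.65e-06 by edgeR). Of 16 glycerolipid genes 6 were called, 2 higher and 4 lower, a share of 37.5% near that of all genes, with AGPAT1 at a log2 fold change of 0.89 (SE 0.08, adjusted p of 3.64e-06 by edgeR), GPAT3 at -0.71 (SE 0.12, adjusted p of 0.000568 by edgeR) and GPAM at 0.64 (SE 0.13, adjusted p of 0.00197 by edgeR). These acyltransferases build phosphatidate.

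Of 25 genes of fatty acid oxidation 23 were tested and 8 called, 3 higher and 5 lower, a share of 34.8% against 39.5% of all genes. ECI1 fell from 30.7 ± 7.02 to 16.7 ± 1.21 CPM (SD, n = 3 each; log2 fold change -0.88, SE 0.14, adjusted p of 0.000326 by edgeR), while ECHS1 rose from 50.5 ± 2.28 to 81.4 ± 4.42 CPM (log2 fold change 0.69, SE 0.08, adjusted p of 1.96e-05 by edgeR). Both are mitochondrial enzymes of the oxidation cycle. CPT1B, a carnitine transferase, had a log2 fold change of -0.44 (SE 0.12, adjusted p of 0.0110 by edgeR). For CPT1B the edgeR adjusted p was 0.0576 without shMORC2 replicate 2 and 0.0546 without shMORC2 replicate 3. With the replicate number as a block 13 of the 23 were called, against 49.0% of all genes. The count was 4 without shCtrl replicate 2, 3 without shCtrl replicate 3 and 5 without shMORC2 replicate 2 or replicate 3. In that order, the calls over all genes were 6428 of 21594, 6707 of 21663, 6553 of 21635 and 6268 of 21598.

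**Figure D5:**
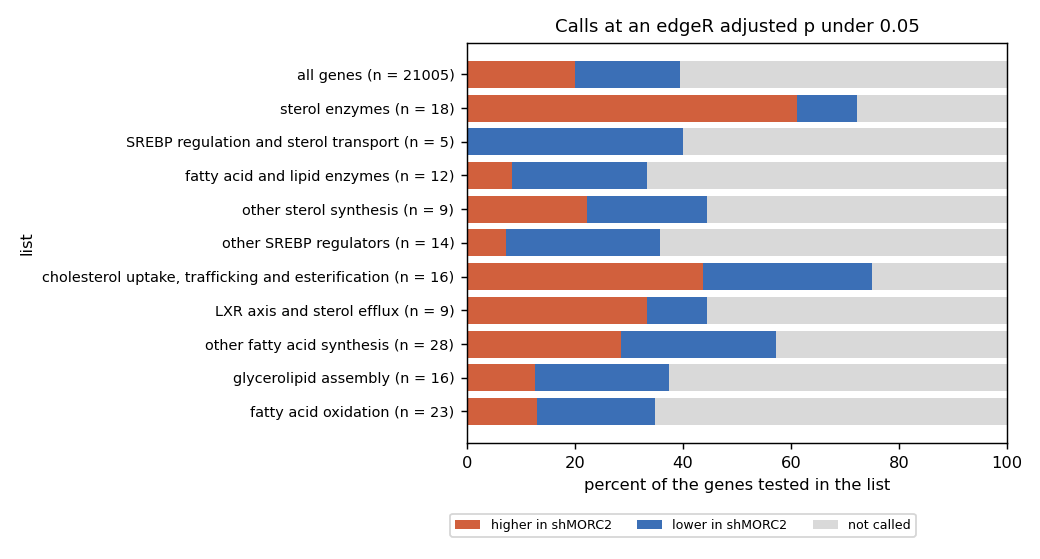
Bars give the percent of the tested genes of each list called higher, called lower or not called in shMORC2 by edgeR, with the number tested beside the name and all genes at the top. The sterol enzymes have 11 of 18 higher and 2 lower, and the other lists hold calls in both directions except the regulation and transport genes, whose 2 calls are both lower.

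The authors' deposited splicing table, made with rMATS, listed 1449 events in 1181 genes. Of the 35 genes 3 had an event, in each case mutually exclusive exons. No header says which of its 2 groups is shMORC2, so no direction of knockdown is given. In SREBF2 (exons at 41868611 to 41868792 and 41870889 to 41871035 on chromosome 22) the authors' inclusion levels were 0.598, 0.615 and 0.621 in group 1 and 0.494, 0.502 and 0.507 in group 2, on 155 to 222 reads per library. In SCAP (47428513 to 47428670 and 47435008 to 47435137 on chromosome 3) they were 0.798, 0.866 and 0.753 against 0.652, 0.559 and 0.628, on 30 to 48 reads. In PMVK (154929024 to 154929176 and 154932352 to 154932415 on chromosome 1) they were 0.366, 0.180 and 0.261 against 0.552, 0.363 and 0.385, on 48 to 92 reads. The groups did not overlap for SREBF2 and SCAP and overlapped for PMVK. The share of all 1449 events without overlap is not given here, so these levels are a description, with no test.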

How the data were processed

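The authors deposited unnormalised read counts by gene, an RPKM table computed from these counts and exon length, and a table of rMATS splicing events with inclusion levels, a difference, p-values and adjusted p-values. The difference and p-value columns and the event summary were not used. The submitters' processing notes name Trimmomatic 0.36, STAR 2.5.3a, featureCounts of Subread 1.5.1, edgeR 3.12.1 and GRCh38. The annotation release, strand setting and collapsing of molecular identifiers were not given in the sources used here. All 35 genes overlapped the GENCODE entry of the same symbol. Without a stated strand setting, reads from overlapping antisense genes cannot be told apart, which concerns 15 of the 35 genes. The gene tables had 0 columns of other samples.

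Counts were tested over the whole table in edgeR 4.0.16 under R 4.3.3, by its quasi-likelihood fit with filterByExpr, TMM and group as the only term, Benjamini-Hochberg adjustment over 21005 genes and a threshold of 0.05. The SE was the log2 fold change divided by the square root of F. The rule for named genes gave values in every library for SREBF1, SREBF2, SCAP, INSIG1, HMGCS1, SQLE, FASN, ACACA, SCD and, in each branch, the 6 called genes without overlap that changed most. Of each further list it took the 3 called genes that changed most, where the mean count was 100 or more. Outside this rule, DHCR7, CYP51A1, ACSS2 and ERLIN1 were also given in every library. The members and lists were chosen with earlier results of these data known. Alternatives were DESeq2 1.42.0, limma 3.58.1 on log2(RPKM + 1) and log2(RPKM + 0.1) for a mean RPKM of at least 1, other scalings and filters, a replicate block, a log2 change of at least 0.5, and each library left out. ERG28 and SPRING1 were found by older symbols in RefSeq. The promoter rule asked for called genes with the looser sterol regulatory element. As none held it, the printed windows were chosen after the values were seen. The tests were also run on simulated data, where far fewer genes changed, and by more than most members did here. Genes were drawn independently there, so that run does not gauge small changes or shifts shared between genes.

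Deviations from the group means correlated across genes between libraries of equal number (r of 0.333, 0.165 and 0.149, against -0.255 to 0.121 for unequal numbers). The highest unequal pair, shCtrl replicate 3 with shMORC2 replicate 2, came close to the lower equal pairs. Whether the libraries are paired is therefore uncertain. The main test took them as unpaired, and the number served as a block in an alternative only. No label says what a number stands for. Between libraries, log2 CPM correlated at 0.994 to 0.996 in a group and at 0.978 to 0.984 across groups.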

Additional observations from a re-analysis of the deposited data

How the results depend on the processing

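The called members numbered 13 to 18 and the called genes 6268 to 8433 when single libraries were left out in turn. For the sterol enzymes the count ran from 9 to 13, for the fatty acid enzymes from 3 to 4 and for the regulation and transport genes from 1 to 3. In the further lists it ran from 7 to 11 for cholesterol uptake, trafficking and esterification, from 2 to 5 for the LXR axis and from 3 to 8 for fatty acid oxidation. A log2 change of at least 0.5 left 6 sterol enzymes, 1 regulation gene, 0 fatty acid enzymes, 7 members, 4707 genes, and, in the further lists in the order of the report, 1, 2, 5, 2, 10, 3 and 2. limma on log2(RPKM + 1) and on log2(RPKM + 0.1) called 7 of 12 genes of uptake, trafficking and esterification. Over all genes these 2 fits called 6269 and 6227 of 14816. The replicate block called 22 members, 7 genes of the LXR axis and 13 of fatty acid oxidation. Beyond SQLE, SREBF2 and ACSS2 it changed no call of a member. Reversals met only genes that were not called. With single libraries left out, the log2 difference ran from -0.0376 to 0.213 for HMGCS1, from -0.144 to 0.0991 for MVD, from -0.111 to 0.0534 for FDPS, from -0.135 to 0.139 for FDFT1 and from -0.0311 to 0.146 for FADS2. Without replicate 1 of both groups, added after seeing the data, it was -0.00616 for FDFT1 and -0.00255 for ME1. The medians of the 3 groups and the MORC2 call kept their direction in every alternative, with medians from 0.24 to 0.41 for the sterol enzymes, from -0.27 to -0.098 for regulation and transport and from 0.0045 to 0.063 for the fatty acid enzymes. The cause of these shifts was not tested.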
